A study of Mus musculus with 6 samples.

Results

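Cathepsins are the proteases of the endosome and lysosome, and legumain is the lysosomal protease that cuts after asparagine. The genes described here are the cysteine cathepsins Ctsb, Ctsc, Ctsh, Ctsk, Ctsl, Ctss and Ctsz, the aspartic cathepsins Ctsd and Ctse, and legumain (Lgmn). They were chosen by name with earlier results of these data known. All 10 of 10 were found among the 25206 genes of the arrays by their current symbols. The cells were alveolar macrophages, which live in the airspaces and engulf what is inhaled. They were washed out of the lungs of uninfected mice with ice-cold PBS and profiled on Affymetrix Mouse Gene ST arrays. The mice compared were Zcchc6+/+ (3 arrays) and Zcchc6-/- (3 arrays). By the study's methods, the mice used were 8 to 16 weeks old and of both sexes, and Zcchc6-/- animals descended from a line with loxP sites around exons 16 and 17 of Zcchc6, which were removed in the germline by a Cre under the EIIa promoter. The removal shifts the reading frame. That Cre transgene was bred out before heterozygotes were intercrossed, so the mice lacked Zcchc6 in all cells and not in macrophages alone, and no sorting step after the lavage is named.

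Cathepsins are made as inactive precursors, tagged with mannose 6-phosphate in the Golgi, carried to endosomes by mannose 6-phosphate receptors, and activated by cleavage as the compartment acidifies. Legumain takes part in this by cutting several cysteine cathepsins into their two-chain forms, and cystatins hold stray cysteine cathepsins in check. In macrophages these enzymes digest engulfed material, degrade the invariant chain (Cd74) that blocks class II MHC molecules, and trim endosomal Toll-like receptors. Tfeb, Tfe3 and Mitf, related transcription factors, bind E-box elements with the core CACGTG near the start of many lysosomal genes.

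That E-box is printed here because it is the sequence through which lysosomal genes are known to be switched on together. RefSeq promoter windows (GRCm38.p6, 250 bases before to 50 after a start site) matched Ctsc, Ctsd, Ctsk, Ctsl, Ctss, Ctsz and Lgmn, 7 of the 10 genes, with 8 windows because Lgmn has a pair of starts. Both strands were searched for CACGTG and for the longer TCACGTG, which contains it. CACGTG stood in 3 of the 8 windows and in 7.15% of all 32851 windows, and TCACGTG in 2 of the 8 and in 3.77% of all windows. Ctsd had a pair of matches to TCACGTG, which lay in chr7:142388044-142388077 and chr7:142387897-142387948 (minus strand) and began 245 and 99 bases before the start. The distal one reads CACGTGA, the same letters on the other strand, and in the proximal one the matches on both strands overlap. The Lgmn match at chr12:102439114-102439164 (minus strand) began 50 bases before 1 of its starts, and the Ctsl window at chr13:64370729-64370770 (minus strand) held only the shorter core, 236 bases before the start. Capitals mark the match, and a match is a description of the letters, not a measured binding site.
Ctsd, distal: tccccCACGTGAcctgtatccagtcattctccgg
Ctsd, proximal: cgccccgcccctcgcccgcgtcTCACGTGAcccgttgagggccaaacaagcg
Lgmn: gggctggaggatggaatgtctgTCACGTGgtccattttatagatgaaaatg
Ctsl: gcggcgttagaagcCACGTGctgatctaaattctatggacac

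The deposited values are log2 expression by the Robust Multiarray Average (RMA), with 1 value per gene and array and no detection call. The probes of different genes differ in brightness, so the levels of different cathepsins were not ranked against each other. Zcchc6, the targeted gene, was at 7.69 to 8.22 in Zcchc6-/- arrays and at 8.65 to 8.77 in Zcchc6+/+ arrays, without overlap. Its log2 fold change was -0.70 (adjusted p = 0.774 from limma), so the test used below did not call the targeted gene either. All 14 of 14 markers of alveolar macrophages, among them Siglecf, Marco and Itgax, were above the median gene. Zcchc6-/- replicate 1 stood furthest from the other arrays. The mean of its 12 T cell markers was 6.58, against 4.08 and 4.12 in the other Zcchc6-/- arrays and 3.85 to 4.40 in Zcchc6+/+ arrays. Cd3e, Cd3g, Lck and Trac were highest in it (8.03, 7.71, 6.95 and 8.98), and many of the values below are therefore also given without that array. The mean of 7 airway epithelium markers was 5.62 to 6.70 in Zcchc6+/+ and 5.997 to 7.19 in Zcchc6-/- arrays. The labels give no sex, and Xist was at 3.27 and 3.78 in Zcchc6-/- replicate 2 and Zcchc6+/+ replicate 1 and between 10.04 and 10.73 in the other 4 arrays. Ddx3y, a gene of the Y chromosome, was at 6.87 and 6.59 in that pair of arrays and between 2.28 and 2.96 in the other 4. By these genes the pair, 1 array of each genotype, read as male and the other 4 as female.

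In wildtype macrophages, 9 of the 10 genes gave a signal far above the median gene (4.41), with means from 8.38 for Ctsl to 12.09 for Ctsd. Ctse was the exception at 3.63 ± 0.30 (SD, n = 3), below the median gene. The wildtype arrays repeated each other closely, with SDs from 0.0031 (Ctsb) to 0.15 (Ctsk) among these 9 genes. Between genotypes, 0 of the 10 genes passed an adjusted p under 0.05 in limma, where 0% of all genes did, and 0 had an unadjusted p under 0.05, where 5.03% of all genes did. The values of the genotypes overlapped for all 10, whereas they did not overlap for 10.2% of all genes. The adjusted p of every one of these genes lay between 0.997 and 0.999. As these are bulk samples, fewer cells of a type and less RNA per cell cannot be told apart in any of these values.

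**Figure D1:**
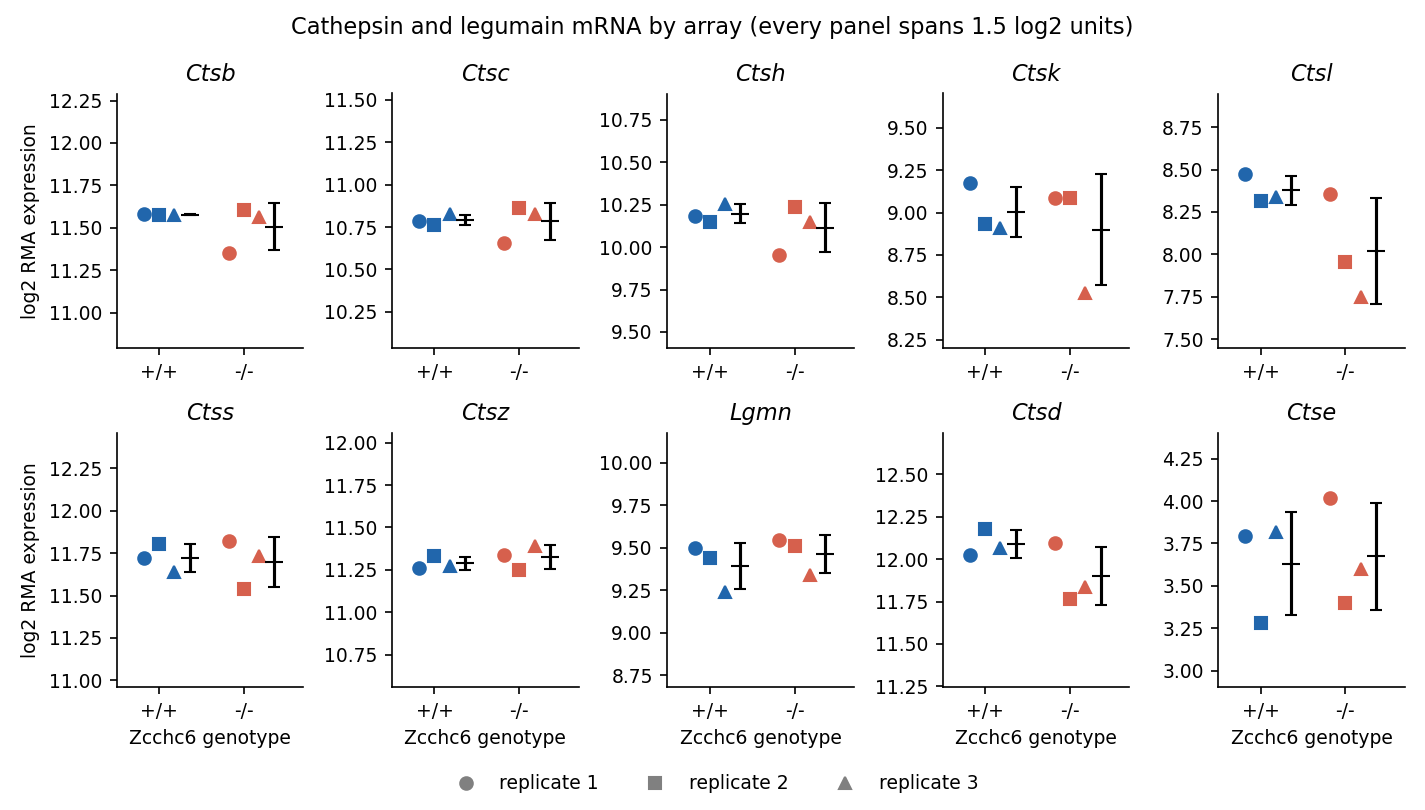
Log2 RMA expression of each gene (y axis, each panel spanning 1.5 log2 units) in the 3 Zcchc6+/+ (blue) and 3 Zcchc6-/- (red) arrays, with the mean and SD of each genotype in black and symbols for replicate numbers. The genotypes overlap in all 10 panels, and Ctsl has a pair of Zcchc6-/- arrays, at 7.96 and 7.75, below all Zcchc6+/+ arrays.

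The intervals show how large a difference these arrays leave room for. The 95% interval of the log2 fold change, Zcchc6-/- minus Zcchc6+/+, stayed inside a doubling and a halving for all 10 genes, and inside a 1.5-fold change either way for 9 of them, all but Ctsl. Ctse counts among both, although its signal lay below the median gene, where RMA understates change. The median log2 fold change of the 10 genes was -0.047, beside -0.0063 over all genes, and their median absolute change was 0.071, beside 0.10 over all genes and 0.089 over genes above the median signal. In 7 of the 10 the mean was lower in Zcchc6-/- macrophages and in 3 it was higher, and 51.8% of all genes had a lower mean. This balance turned under another scaling, since the median of the 10 genes was 0.015 after a second quantile normalization.

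**Figure D2:**
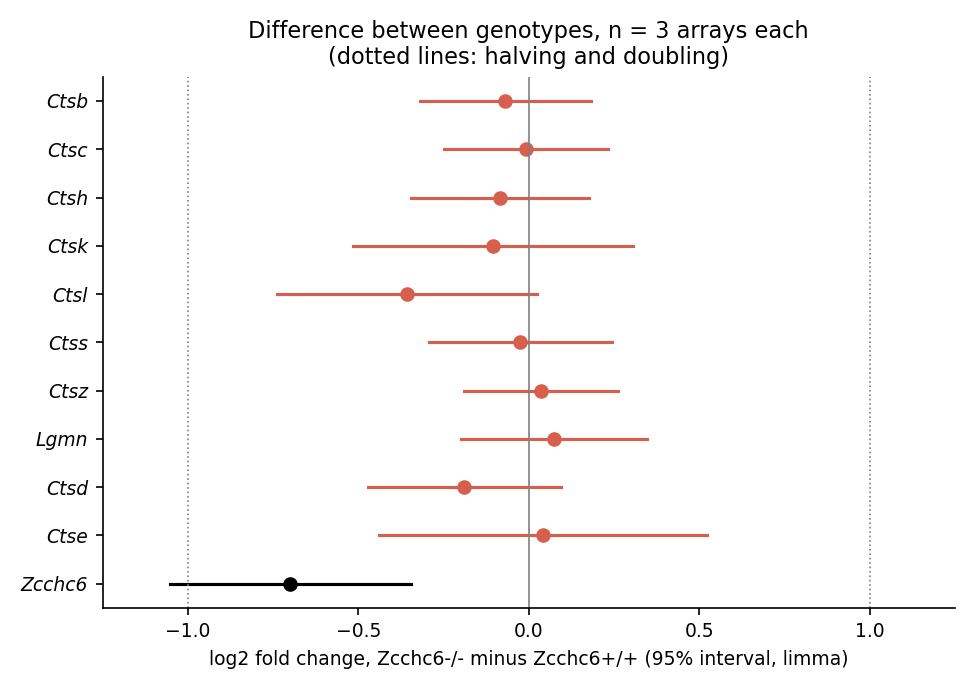
Log2 fold change of each gene with its 95% interval from limma (x axis, Zcchc6-/- minus Zcchc6+/+, n = 3 arrays each), with Zcchc6 in black for scale and dotted lines at a halving and a doubling. All 10 cathepsin and legumain intervals cross 0, and the one reaching lowest is that of Ctsl at -0.74.

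Ctsl, an endopeptidase that degrades engulfed protein and can cut the invariant chain, had the largest difference of the 10. Its log2 expression was 8.48, 8.31 and 8.34 in Zcchc6+/+ arrays and 8.36, 7.96 and 7.75 in Zcchc6-/- arrays. Zcchc6-/- replicates 2 and 3 lay below every wildtype array and replicate 1 lay among them. The Ctsl means were 8.38 ± 0.087 and 8.02 ± 0.31 (SD, n = 3 each), a log2 fold change of -0.36 (standard error 0.16, unadjusted p = 0.0629 and adjusted p = 0.997 from limma). This is 78.1% of the wildtype signal, with a 95% interval from 59.95% to 102%. The size of the Ctsl difference rested on single arrays. It was -0.53 without Zcchc6-/- replicate 1 (unadjusted p = 0.00365, adjusted p = 0.622 from limma) and -0.22 without Zcchc6-/- replicate 3. Over all alternatives run, the adjusted p of Ctsl from limma was never below 0.555. The mean of the 14 alveolar macrophage markers was also lower in Zcchc6-/- replicates 2 and 3 (10.34 and 10.35) than in Zcchc6-/- replicate 1 (10.54) and the Zcchc6+/+ arrays (10.50 to 10.58). The markers were split. In both of those arrays Fabp4, Krt79, Itgax, Mrc1, Ear2 and Chil3 lay below every wildtype array, and Marco lay above every one. Siglecf, Pparg, Cidec, Fabp5, Abcg1, Car4 and Mertk did neither. Those arrays are the ones low for Ctsl and Ctsd. The share of all genes meeting the same rule was not computed, so this split has no background beside it. Fabp4 was furthest from its wildtype mean of 9.68, at 7.92 and 8.69. The part of these markers in the Ctsl and Ctsd values was not tested.

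Ctss is an endopeptidase that can cut the invariant chain and stays active at neutral pH. Its values were 11.72, 11.80 and 11.64 in wildtype arrays, against 11.82, 11.54 and 11.73 in Zcchc6-/- arrays. The highest and the lowest of the 6 Ctss values were both in Zcchc6-/- macrophages. The log2 fold change of Ctss was -0.025, or 98.3% of the wildtype signal with a 95% interval from 81.6% to 118%. Leaving out the highest array, Zcchc6-/- replicate 1, gave -0.088, and leaving out the lowest, replicate 2, gave 0.056. Ctsk, known as the collagenase of osteoclasts, was at 9.17, 8.93 and 8.91 in wildtype arrays, against 9.09, 9.09 and 8.52 in Zcchc6-/- arrays. Zcchc6-/- replicate 3 was the lowest of the 6. The Ctsk log2 fold change was -0.10, with a 95% interval from 69.96% to 124% of the wildtype signal. Leaving out that array gave 0.083, and leaving out Zcchc6-/- replicate 1 gave -0.20.

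Ctsb, an endopeptidase that also clips dipeptides from carboxyl ends, was the steadiest gene in wildtype cells. Its values were 11.58, 11.57 and 11.58 in wildtype arrays, against 11.35, 11.61 and 11.57 in Zcchc6-/- arrays. The Ctsb log2 fold change of -0.069 (95% interval 80.1% to 114% of the wildtype signal) became 0.010 without Zcchc6-/- replicate 1, the lowest of the 6. Ctsc, the dipeptidyl peptidase that activates granule serine proteases, was at 10.79, 10.76 and 10.82 in wildtype arrays, against 10.66, 10.86 and 10.83 in Zcchc6-/- arrays. The Ctsc log2 fold change was -0.0085, with a 95% interval from 84.2% to 117% of the wildtype signal, and 0.055 without Zcchc6-/- replicate 1. Ctsh, an aminopeptidase, was at 10.19, 10.15 and 10.26 in wildtype arrays, against 9.95, 10.24 and 10.15 in Zcchc6-/- arrays. The Ctsh log2 fold change of -0.083 (95% interval 78.8% to 113%) was -0.0029 without Zcchc6-/- replicate 1. For Ctsb, Ctsc and Ctsh, Zcchc6-/- replicate 1, the array rich in T cell markers, was the lowest of all 6. The part of T cell RNA in these lower values was not tested.

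Ctsz, a carboxypeptidase that takes off single residues, had the narrowest interval of the 10, and Zcchc6-/- replicate 1 was above all wildtype arrays for it. It was at 11.26, 11.33 and 11.27 in wildtype arrays, against 11.34, 11.25 and 11.39 in Zcchc6-/- arrays, a log2 fold change of 0.037 with a 95% interval from 87.7% to 120.0% of the wildtype signal. Lgmn was at 9.497, 9.44 and 9.24 in wildtype arrays, against 9.55, 9.51 and 9.34 in Zcchc6-/- arrays. A pair of Zcchc6-/- arrays was slightly above all wildtype arrays, and the Lgmn log2 fold change was 0.074 (standard error 0.12, 95% interval 87.1% to 127%). It was -0.0035 without Zcchc6+/+ replicate 3, the lowest of the 6, and 0.033 without Zcchc6-/- replicate 1.

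Of the aspartic cathepsins, Ctsd is the main acid endopeptidase of lysosomes. Its values were 12.02, 12.18 and 12.06 in Zcchc6+/+ and 12.10, 11.77 and 11.84 in Zcchc6-/- arrays. As with Ctsl, Zcchc6-/- replicates 2 and 3 lay below every wildtype array and replicate 1 lay within their range. The Ctsd log2 fold change was -0.19 (standard error 0.12, unadjusted p = 0.161 and adjusted p = 0.997 from limma), or 87.7% of the wildtype signal with a 95% interval from 72.1% to 107%. Without Zcchc6-/- replicate 1 it was -0.29 (unadjusted p = 0.0368, adjusted p = 0.798 from limma), and without Zcchc6-/- replicate 2 it was -0.12. Ctse, an endosomal enzyme best known from the stomach and from lymphoid cells, was at 3.80, 3.28 and 3.81 in wildtype arrays, against 4.02, 3.40 and 3.60 in Zcchc6-/- arrays. The Ctse log2 fold change of 0.043 (95% interval 73.8% to 144%) became -0.13 without Zcchc6-/- replicate 1, and also without Zcchc6+/+ replicate 2.

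**Figure D3:**
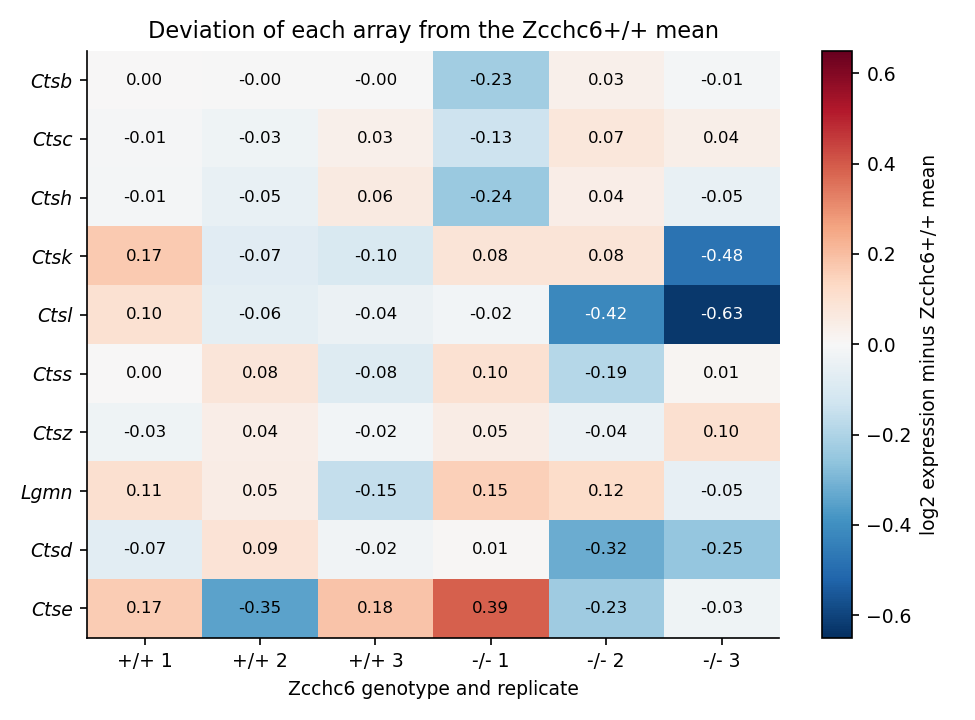
Log2 expression of each gene (rows) in each array (columns) minus the Zcchc6+/+ mean of that gene, with blue below and red above it. Zcchc6-/- replicate 1 is low for Ctsb, Ctsc and Ctsh, and Zcchc6-/- replicates 2 and 3 are low for Ctsl (-0.42 and -0.63) and Ctsd (-0.32 and -0.25).

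Within each Zcchc6-/- array the genes lay on both sides of their wildtype means. Of the 10, 6 were above it in replicate 1, 5 in replicate 2 and 3 in replicate 3. Of the 6 arrays, Zcchc6-/- replicate 1 held the highest value for 3 genes and the lowest for 3 others. The spread was wider among Zcchc6-/- arrays for 9 of the 10 genes, all but Lgmn, with a median SD of 0.15 against 0.082 in Zcchc6+/+. A wider spread in Zcchc6-/- was common on these arrays, at 64.5% of all genes and 66.9% of those above the median signal, whose median SDs were 0.16 and 0.12.

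Other cathepsins were read beside these 10. The serine carboxypeptidase Ctsa, the cysteine cathepsins Ctsf and Ctso, the lymphocyte cathepsin Ctsw and the neutrophil protease Ctsg gave 0 calls among 5 in limma. Of the 5, 1 had an unadjusted p under 0.05, where 5.03% of all genes did. Their median log2 fold change was -0.043. Without Zcchc6-/- replicate 1 the median was -0.0074 and 0 of the 5 had an unadjusted p under 0.05. Ctsf was at 6.02, 6.37 and 6.58 in wildtype arrays, against 5.90, 6.003 and 5.87 in Zcchc6-/- arrays. All Ctsf values of Zcchc6-/- macrophages lay below those of the wildtype. It was the 1 of these 5 genes without overlap, where 10.2% of all genes had none. The Ctsf difference was -0.40 on the log2 scale (standard error 0.15, unadjusted p = 0.0329 and adjusted p = 0.981 from limma). Without Zcchc6-/- replicate 1 it was -0.38 (unadjusted p = 0.0644 from limma). Ctso had a log2 fold change of -0.074, which was 0.096 without Zcchc6-/- replicate 1, while Ctsg and Ctsw had 0.13 and 0.084. Ctsw is made by cytotoxic lymphocytes, and its highest value, 4.36, was in Zcchc6-/- replicate 1, without which its value was -0.028. The 8 placental cathepsins, a rodent cluster used by the placenta, were all below the median gene with wildtype means from 1.59 to 3.21. Of these 0 passed in limma and 1 had an unadjusted p under 0.05, where 5.03% of all genes did. Cts6 and Ctsj did not overlap between the genotypes, where 10.2% of all genes did not. Their differences were 0.61 for Cts6 (limma adjusted p = 0.900) and 0.30 for Ctsj (limma adjusted p = 0.997) on the log2 scale.

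Among inhibitor and transport genes, 0 passed and 0 had an unadjusted p under 0.05 in limma. Genotypes did not overlap for 1 of 9 inhibitor, 1 of 9 sorting and 2 of 15 proton pump genes, against 10.2% of all genes. For 9 measured cystatin and related inhibitor genes the median log2 fold change was -0.039. The secreted cystatin Cst3 read 9.38 ± 0.18 and 9.26 ± 0.10 and the cytosolic Cstb 8.65 ± 0.11 and 8.61 ± 0.11 (SD, n = 3, Zcchc6+/+ and Zcchc6-/-), with log2 fold changes of -0.12 and -0.039. Cst7, an inhibitor of cysteine cathepsins of immune cells, was below the median gene and had -0.16, without overlap between the genotypes (adjusted p = 0.997 from limma), and Ctla2b, whose product inhibits cathepsin L-like enzymes, had -0.26 at a wildtype mean of 1.92, far below the median gene. Without Zcchc6-/- replicate 1 the Ctla2b value was -0.10 and the median of the inhibitors -0.075. For the 9 genes for mannose 6-phosphate tagging and sorting the median was -0.087, with Gnptg, a subunit of the tagging enzyme, at -0.15. The receptor genes M6pr and Igf2r had log2 fold changes of -0.087 and 0.16, and Igf2r values did not overlap (4.19 to 4.21 against 4.25 to 4.56, adjusted p = 0.997 from limma). Without Zcchc6-/- replicate 1 the Igf2r value was 0.063. The 15 measured subunit genes of the proton pump had a median of -0.069. Atp6ap2, an accessory subunit, had -0.20 and Atp6v0a1, a membrane subunit, 0.16. The Atp6ap2 value was -0.12 and the median of the pump genes -0.013 without Zcchc6-/- replicate 1.

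All 3 lysosomal transcription factor genes had a slightly lower mean, and 0 passed or had an unadjusted p under 0.05 in limma. Tfeb was at 6.23, 6.30 and 6.19 in wildtype arrays, against 6.06, 5.94 and 6.15 in Zcchc6-/- arrays, without overlap. It was the 1 of these 3 genes without overlap, where 10.2% of all genes had none. On the log2 scale Tfeb differed by -0.20 (standard error 0.10, limma adjusted p = 0.997), Tfe3 by -0.084 and Mitf by -0.036. These became -0.20 for Tfeb, -0.015 for Tfe3 and -0.085 for Mitf without Zcchc6-/- replicate 1. The genes with the E-box letters printed above were Ctsd at -0.19, Ctsl at -0.36 and Lgmn at 0.074, and 0 of them passed in limma. The part of these factors in the cathepsin and legumain values was not tested.

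Genes of class II MHC chains and their loading, which depends on cathepsins, were read next. In limma 0 of these 6 genes passed, and 4 had an unadjusted p under 0.05, where 5.03% of all genes did. All 6 means were lower in Zcchc6-/- macrophages, the median difference was -0.77 on the log2 scale, and 4 of 6 did not overlap between the genotypes, where 10.2% of all genes did not. Cd74, the invariant chain that Ctss and Ctsl cut, was at 11.02, 10.32 and 10.24 in wildtype arrays, against 9.47, 10.11 and 9.79 in Zcchc6-/- arrays. Its log2 fold change was -0.74 (adjusted p = 0.927 from limma), while Ctss, Ctsl and Lgmn stood at -0.025, -0.36 and 0.074. Both class II beta chain genes, H2-Ab1 with -1.03 (limma adjusted p = 0.902) and H2-Eb1 with -0.81 (limma adjusted p = 0.750) on the log2 scale, did not overlap between the genotypes. H2-Ab1 was at 9.60, 8.54 and 8.57 in wildtype arrays, against 7.51, 8.19 and 7.92 in Zcchc6-/- arrays. Zcchc6+/+ replicate 1 was the highest array for Cd74 and both beta chains. The differences and the median of -0.77 above include that array and rest partly on it. No value without it is given here, so their size without it is left unknown. Without Zcchc6-/- replicate 1, where Cd74 was lowest, the Cd74 value was -0.57 and the median of the 6 genes -0.54, and 2 of the 6, H2-Ab1 and H2-Eb1, had an unadjusted p under 0.05 in limma. Whether the T cell RNA of that array bears on these values was not tested.

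Further known targets of cathepsins, read together with a receptor chaperone, had 0 calls, and 0 at an unadjusted p under 0.05, in limma. Genotypes did not overlap for 1 of 4 genes in the receptor list and 1 of 6 granule protease genes (Prtn3). Over all genes that share was 10.2%. The 4 genes of nucleic acid sensing Toll-like receptors and their chaperone had a median of -0.085 that was 0.037 without Zcchc6-/- replicate 1. Unc93b1, which carries these receptors to endosomes, had a log2 fold change of -0.23 without overlap, which was -0.12 without Zcchc6-/- replicate 1, and Tlr9 had 0.21. The 6 granule protease genes whose products Ctsc activates were all below the median gene, with wildtype means from 2.16 to 3.82. Their median was 0.12, or 0.070 without Zcchc6-/- replicate 1, and Prtn3 and Gzmb had -0.19 and 0.19.

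**Figure D4:**
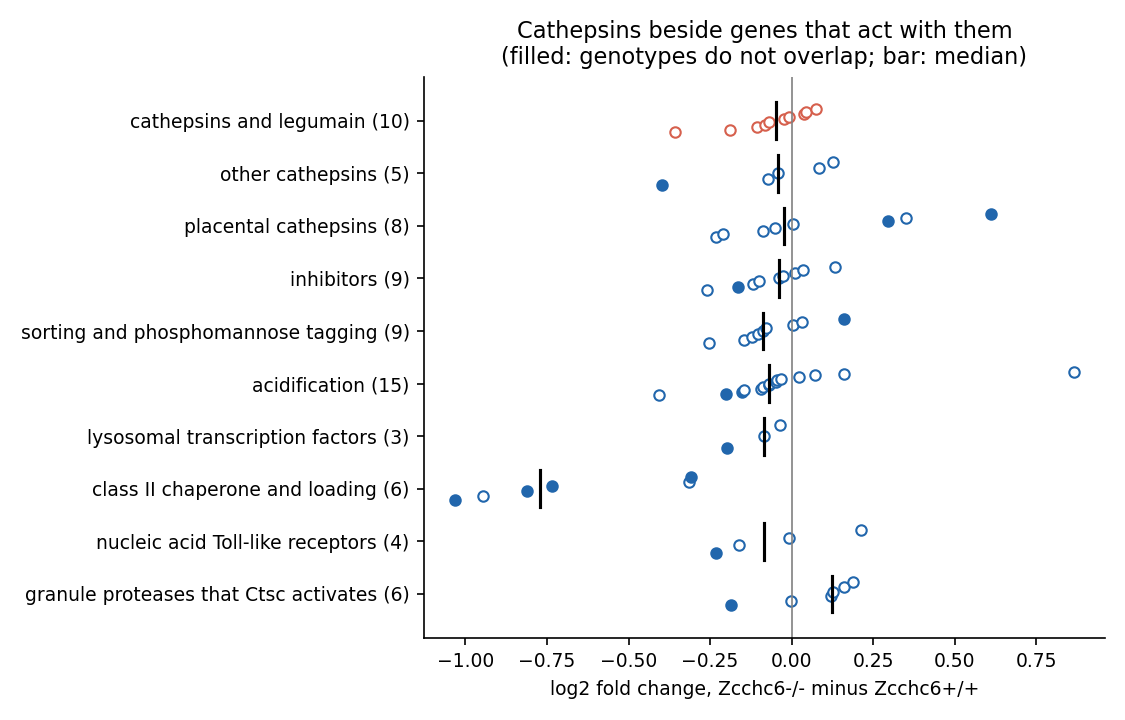
Log2 fold change (x axis, Zcchc6-/- minus Zcchc6+/+) of each measured gene in the cathepsin and legumain group (red) and in 9 further lists (blue). The lists hold other and placental cathepsins and genes that act with cathepsins. The number of genes is in brackets, the median is a bar, and points are filled where the genotypes do not overlap. The class II list has a median of -0.77, and the medians of the other lists lie between -0.087 and 0.12.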

How the data were processed

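RNA of lavaged alveolar macrophages was measured on 6 arrays, grouped by the genotype in their labels. The authors deposited log2 values per Entrez gene, made with RMA in affy 1.36.1 (R 2.15.1 per the labels) and an Entrez Gene probe mapping. RMA corrects background, gives all arrays 1 distribution and summarises a gene's probes, so shifts shared by most genes are removed and low signals are compressed. No source used here names the genome build behind that mapping. Entrez numbers were named through RefSeq (GRCm38.p6) and the platform annotation, for 23740 of 25206 genes, and Zcchc6 is listed there as Tut7. All genes were fitted in R 4.3.3 with limma 3.58.1 (lmFit, eBayes, no covariate, no filter), and p-values were adjusted over the whole table (Benjamini-Hochberg, threshold 0.05). The procedure was tested on simulated data. No pair of arrays shared more than 0.298% of values, so none was counted as a copy.

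The genes named are all 10 cathepsin and legumain genes, Zcchc6, Xist and Ddx3y. Added to these are the pair of smallest p in each list and a fixed set of partners (Ctsf, Ctso, Ctsw, Cst3, Cst7, Cstb, Igf2r, M6pr, Cd74, Tfeb). Markers with values were picked from the list that defines their cell type. Ctsa, Mitf and the E-box windows were chosen after values were seen. Members and lists were written with earlier results of these data known. Stfa2, BC100530 and Atp6v1f of the lists were not matched. Replicates are numbered samples that the labels do not call separate mice, so p-values cover no more than the spread between these samples, part of which may be technical. Precision is limited by having 3 arrays a group. An exact permutation test of 3 arrays against 3 cannot go below p = 0.1. The alternatives were array weights, ordinary variances, variances made trended and robust, dropping genes below the median signal, a second quantile normalization, centred medians, a replicate block, Xist as a covariate and leaving out each array. List medians without Zcchc6-/- replicate 1 were added after seeing the data.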

Additional observations from a re-analysis of the deposited data

How the results depend on the processing

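With 14 alternatives run, 0 of the cathepsin and legumain genes passed an adjusted p under 0.05 in limma under any of them, and the median log2 fold change of the group was -0.088 (without Zcchc6+/+ replicate 2) to -0.022 (without Zcchc6+/+ replicate 1) with 1 array left out, and -0.084 without Zcchc6-/- replicate 2. That median moved to 0.015 with a second quantile normalization, which also turned Ctsb to 0.050, Ctsc to 0.030 and Ctss to 3.3e-05. Ctsc turned to 0.021 with array weights, which also gave -0.27 for Ctsk and 0.0033 for Lgmn, and to 0.0084 with centred array medians. With 1 array left out, the range was -0.12 to 0.010 for Ctsb, -0.049 to 0.055 for Ctsc, -0.13 to 0.18 for Ctse, -0.20 to 0.083 for Ctsk, -0.088 to 0.056 for Ctss and -0.0035 to 0.14 for Lgmn. Ctsd, Ctsh, Ctsl and Ctsz kept their direction in all alternatives run. Ctsz and Ctsh did so barely, at 0.0038 without Zcchc6-/- replicate 3 and -0.0029 without Zcchc6-/- replicate 1. The cause of these turns was not tested. Dropping genes below the median signal left out Ctse. Ctsl had an unadjusted p under 0.05 with trended variances, array weights, the replicate block and without Zcchc6-/- replicate 1, where Ctsd did too.

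The labels do not say that equal replicate numbers pair the samples. For that reason the numbers were not taken as pairs. Deviations of same-numbered arrays from their group means correlated at 0.090, -0.23 and 0.046 over genes. Those of differently numbered arrays ranged from -0.26 to 0.26, which covers these values, so the correlations cannot decide whether samples were paired. With the replicate block 0 of the 10 genes passed, and the group's median log2 fold change was -0.047, as without it.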
